A study of Homo sapiens with 4 samples.

Results

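The 10 genes described here encode the 5 lysyl oxidases (LOX, LOXL1, LOXL2, LOXL3 and LOXL4), the 3 lysyl hydroxylases (PLOD1, PLOD2 and PLOD3) and the catalytic alpha subunits P4HA1 and P4HA2 of collagen prolyl 4-hydroxylase. They were taken by gene symbol from 34616 genes with a symbol, with earlier results of these data known, so the counts below describe the 10 genes and are no independent evidence of a direction. Together they have 19 of the 65423 transcripts in the deposited table. For each gene the transcript with the highest mean count gave its value.

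RNA was sequenced from MDA-MB-231-LM2 (LM2), a subline labelled as highly metastatic to the lung, and from its parent MDA-MB-231, a breast cancer cell line. LM2 cells grew in DMEM medium in 95% air and 5% CO2, MDA-MB-231 cells in Leibovitz L-15 medium in 100% air, both with 10% serum, so cell line and culture condition cannot be told apart. GEO lists 2 samples for each line, but the table has a single column for each, and no source used here says if that column is 1 library or both together. There is no replicate check, no p-value is given, and intervals at 95% cover counting error only. Counts totalled 128985870 in LM2 and 130689252 in MDA-MB-231. Ratios are of LM2 to MDA-MB-231 with each count taken relative to its total, and RPKM is the count relative to transcript length and to the column total. The table reads whole cultures, in which fewer cells expressing a gene and less RNA per cell cannot be told apart.

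Collagen is modified while its chains are still in the endoplasmic reticulum. Prolyl 4-hydroxylase makes the hydroxyproline that keeps the triple helix stable, and lysyl hydroxylases make hydroxylysine, which carries sugars and forms part of the crosslinks. Both kinds of hydroxylase use iron, oxygen, 2-oxoglutarate and ascorbate. Outside the cell, the copper-dependent lysyl oxidases turn lysine and hydroxylysine side chains into aldehydes, which crosslink collagen and elastin fibres. In breast tumours this crosslinking is known for stiffening the matrix, and LOX, LOXL2, LOXL4, PLOD1, PLOD2, P4HA1 and P4HA2 are known targets of the hypoxia-inducible factors.

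All 5 lysyl oxidases had lower counts relative to the totals in LM2, as did all 3 lysyl hydroxylases and P4HA2, while P4HA1 was higher. LOX, LOXL1 and LOXL4 were over 2-fold lower in LM2, which is 3 of the 10 genes, and none was over 2-fold higher. Among the 15469 genes whose mean count was 50 or more, 6.86% were lower by over 2-fold and 4.60% higher by over 2-fold. On a log2(RPKM + 1) scale, which pulls low values together, only LOXL4 was over 2-fold lower, and 1.76% of the 15469 genes were. The median log2 ratio was -0.56 over the 10 genes and -0.00 over the 15469 genes. The central part of all genes, between the 5th and 95th percentiles, reached from -1.19 to 0.96 on the log2 scale, and only LOXL1 and LOXL4 of the 10 lay outside it.

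**Figure D1:**
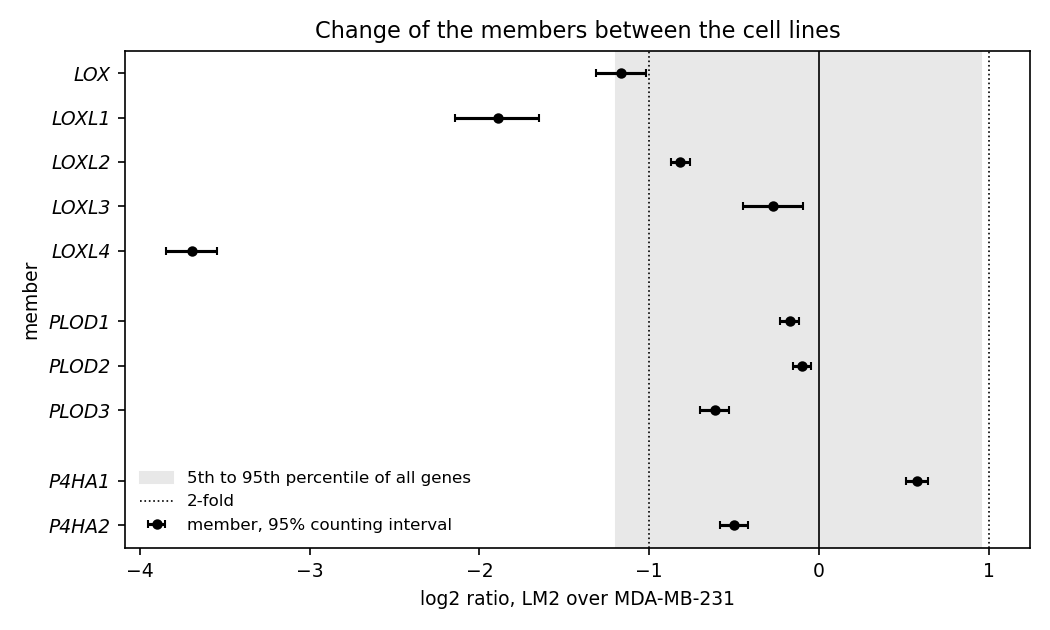
The log2 ratio of LM2 over MDA-MB-231 (x axis) is plotted for each of the 10 genes, with bars for the 95% counting interval, a grey band from the 5th to the 95th percentile of all genes and dotted lines at 2-fold. LOXL4 stands farthest to the left at -3.69, LOXL1 is at -1.89, LOX is at -1.17 inside the band, and P4HA1 at 0.58 is to the right of 0.

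LOXL4 showed the largest difference of the 10 genes. It encodes a lysyl oxidase with scavenger receptor domains. Its transcript NM_032211 (3657 bases) had 393 counts in LM2 and 5154 in MDA-MB-231, or 0.833 and 10.8 RPKM. The count was 12.9-fold lower in LM2 (interval 11.7 to 14.4). Of the 15469 genes, 0.666% had a ratio at or below it. Relative to RPKM over all these genes, LOXL4 was at the 22.1 percentile in LM2 and at the 81.2 percentile in MDA-MB-231.

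LOXL1, a lysyl oxidase known for its role in elastic fibres, was the next. NM_005576 (2361 bases) had 170 counts in LM2 and 640 in MDA-MB-231, or 0.558 and 2.07 RPKM. It was 3.72-fold lower in LM2 (3.13 to 4.43), and 2.26% of all genes had a ratio at or below it. LOX, the founding member of the family, is secreted as a proenzyme whose propeptide is cleaved off outside the cell. NM_002317 (5177 bases) had 542 counts in LM2 and 1234 in MDA-MB-231, or 0.812 and 1.82 RPKM. LOX was 2.25-fold lower in LM2 (2.03 to 2.49), and 5.23% of all genes had a ratio at or below it.

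The stretches upstream of the 3 genes that were over 2-fold lower, and of P4HA1, the only one of the 10 that was higher, are shown for their difference in base composition and in matches to the core of the hypoxia response element. Each is the 250 bases before the RefSeq start site in GRCh38.p14, 5′ to 3′ on the strand of the gene. Capitals mark ACGTG or GCGTG on either strand, so that CACGT and CACGC are marked as well. LOX lies at chr5:122078260-122078509 (minus strand), LOXL1 at chr15:73926212-73926461 (plus strand), LOXL4 at chr10:98268195-98268444 (minus strand) and P4HA1 at chr10:73096867-73097116 (minus strand). For LOX, which has 3 start sites in RefSeq, the farthest upstream is shown.
LOX: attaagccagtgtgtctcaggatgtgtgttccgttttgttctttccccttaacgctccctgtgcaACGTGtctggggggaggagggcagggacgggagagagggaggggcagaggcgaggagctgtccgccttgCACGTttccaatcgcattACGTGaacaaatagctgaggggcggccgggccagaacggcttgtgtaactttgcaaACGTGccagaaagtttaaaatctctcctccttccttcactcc
LOXL1: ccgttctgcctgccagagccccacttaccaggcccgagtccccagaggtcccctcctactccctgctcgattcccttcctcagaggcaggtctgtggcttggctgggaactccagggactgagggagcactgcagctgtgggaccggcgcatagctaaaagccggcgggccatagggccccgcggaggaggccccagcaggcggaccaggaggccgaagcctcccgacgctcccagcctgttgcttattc
LOXL4: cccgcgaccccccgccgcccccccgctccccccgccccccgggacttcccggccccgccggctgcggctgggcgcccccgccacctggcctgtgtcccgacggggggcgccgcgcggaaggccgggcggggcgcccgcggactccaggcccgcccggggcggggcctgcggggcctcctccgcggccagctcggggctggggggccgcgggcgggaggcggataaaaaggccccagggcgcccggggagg
P4HA1: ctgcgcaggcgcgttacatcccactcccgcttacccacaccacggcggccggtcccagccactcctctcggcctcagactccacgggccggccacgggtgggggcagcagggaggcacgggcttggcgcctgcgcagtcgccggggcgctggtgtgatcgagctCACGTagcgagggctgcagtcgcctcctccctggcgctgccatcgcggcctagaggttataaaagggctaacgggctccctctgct

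The LOX stretch holds 4 matches, which begin 185, 116, 98 and 42 bases before the start site. The stretches before the other 2 LOX start sites share 201 bases and hold 2 matches each, at the same letters, with 18 and 19 CG pairs in 61.2% and 66.4% G or C. Of the 3 stretches of LOX, the one with the most matches is thus the one shown. The P4HA1 stretch holds 1, at 86 bases, and those of LOXL1 and LOXL4 hold none. Of 35116 such stretches of all genes, 43.2% hold at least 1 match and 3.22% at least 4, while 19.4% hold at least 2. PLOD2 has 3, PLOD1 has 2, and PLOD3 and P4HA2 have none. LOXL3 has none at its first start site and 1 at the other. The LOXL4 stretch is 86.4% G or C with 37 CG pairs, against medians of 58.0% and 11 over all stretches, and 3.998% of stretches have at least as many CG pairs. LOX has 13 CG pairs in 55.2% G or C, and LOXL1 has 13 in 66.8%. The letters are a description of these stretches, and binding of any factor was not measured.

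The other 2 lysyl oxidases were within 2-fold. LOXL2, known for crosslinking the type IV collagen of basement membranes and for a role in epithelial-mesenchymal transition, was the most abundant lysyl oxidase of both cell lines. NM_002318 (3810 bases) had 4210 counts in LM2 and 7513 in MDA-MB-231, or 8.57 and 15.1 RPKM, and was 1.76-fold lower in LM2 (1.70 to 1.83). LOXL3, which is known from human and mouse genetics for its part in palate and cartilage development, had the smallest difference of the family. NM_032603 (3121 bases) had 481 counts in LM2 and 587 in MDA-MB-231, or 1.19 and 1.44 RPKM, and was 1.20-fold lower in LM2 (1.07 to 1.36).

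**Figure D2:**
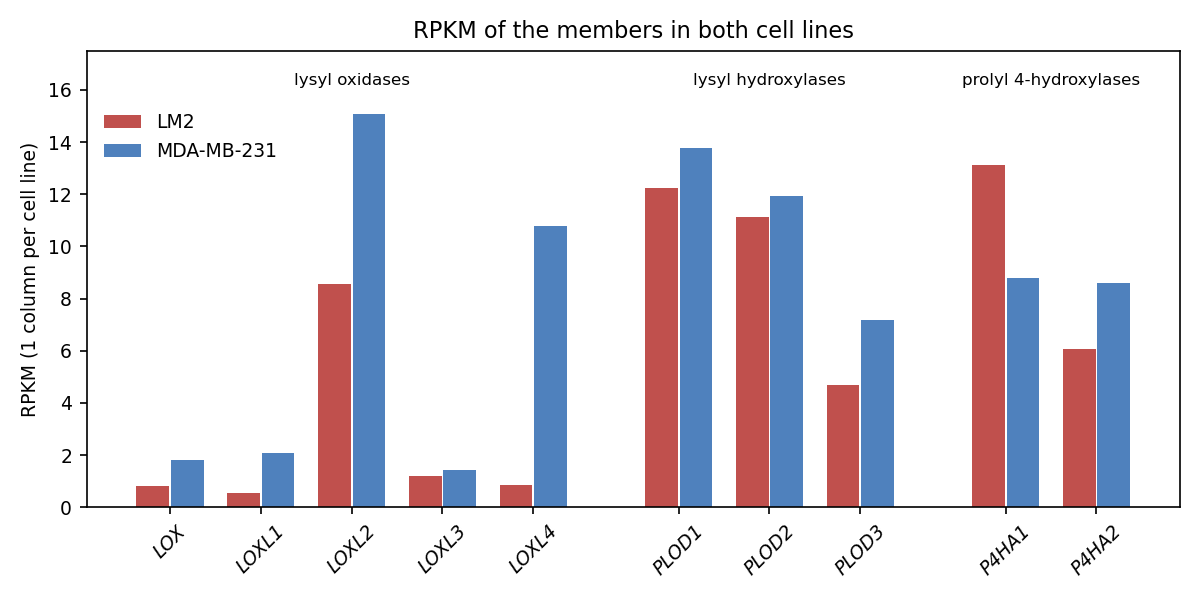
RPKM (y axis, linear and starting at 0) is plotted for the 10 genes, with the LM2 column in red to the left of the MDA-MB-231 column in blue. LOXL4 has 0.833 RPKM in LM2 and 10.8 in MDA-MB-231, while P4HA1 is the only gene whose red bar is the taller, at 13.1 RPKM in LM2 and 8.79 in MDA-MB-231.

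Summed over the family, the lysyl oxidases had 11.96 RPKM in LM2 and 31.2 in MDA-MB-231, which is 2.61-fold lower in LM2. LOXL4 took 51.7% of that difference and LOXL2 took 33.9%. Without LOXL4 the sum was 11.1 RPKM in LM2 and 20.4 in MDA-MB-231, or 1.84-fold lower. The make-up of the family differed as well. LOXL2 took 71.6% of the summed RPKM in LM2 and 48.3% in MDA-MB-231, and LOXL4 took 6.96% in LM2 and 34.6% in MDA-MB-231. LOXL3 took 9.99% in LM2 and 4.61% in MDA-MB-231, although its own level was slightly lower in LM2.

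Ratios between genes of the same column do not depend on the totals. LOXL4 over LOXL2 was 0.0973 in LM2 and 0.715 in MDA-MB-231, a log2 difference of -2.88 (-3.04 to -2.72). For LOXL1 over LOXL2 the ratio was 0.0652 in LM2 and 0.138 in MDA-MB-231, a difference of -1.08 (-1.33 to -0.83). LOX over LOXL2 changed less, with 0.0947 in LM2 and 0.121 in MDA-MB-231 and a difference of -0.35 (-0.51 to -0.20). LOXL3 over LOXL2 went the other way, with 0.140 in LM2 and 0.0954 in MDA-MB-231 and a difference of 0.55 (0.37 to 0.73). The 5 genes thus differed from each other in the size of their ratio by more than counting error.

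**Figure D3:**
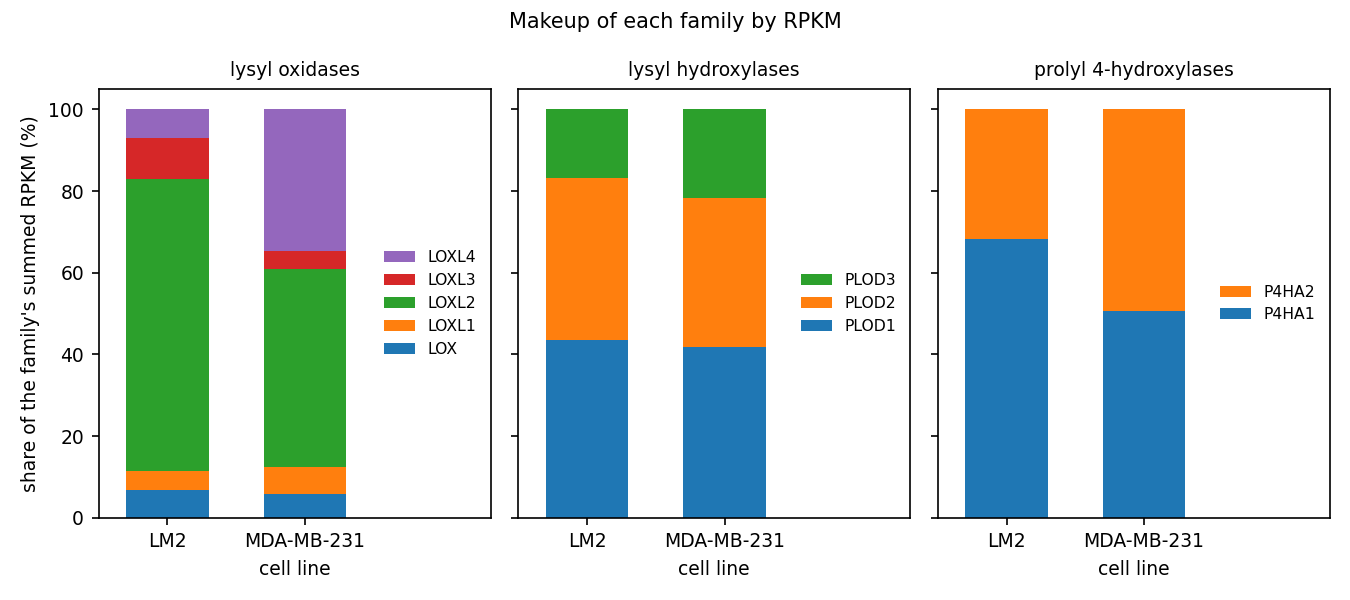
Each stacked bar gives the percent of the summed RPKM of a family (y axis) that each of its genes takes, for lysyl oxidases, lysyl hydroxylases and prolyl 4-hydroxylase alpha subunits, with LM2 to the left of MDA-MB-231 in each pair. LOXL4 fills 6.96% of the lysyl oxidase bar in LM2 and 34.6% in MDA-MB-231, and the alpha subunits are 68.3% P4HA1 in LM2 and 50.6% in MDA-MB-231.

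LOX has a second transcript in the table, NM_001178102 (4393 bases), with 512 counts in LM2 and 1072 in MDA-MB-231 and a log2 ratio of -1.05. This second transcript was 2.07-fold lower in LM2 (1.86 to 2.30), an interval that reached below 2-fold. Transcripts of the same gene share reads, so these are not independent values. The longer transcript, with 784 more bases, had 30 more counts than the shorter in LM2 and 162 more in MDA-MB-231. That excess was 5.54% of its counts in LM2 (3.77 to 7.81) and 13.1% in MDA-MB-231 (11.3 to 15.1). The excess was 5.33-fold lower in LM2 (3.59 to 8.15), against 2.25-fold for the whole transcript. It is net of any reads given only to the shorter transcript. Its intervals treat it as a plain count and so do not cover its full counting error. The difference of the log2 ratios was -1.25, and 27 of 3325 genes with such a pair of transcripts (0.812%) had one at or below it, a comparison chosen after the LOX values were seen. RefSeq gives LOX 3 start sites in GRCh38.p14, at 122078259, 122077223 and 122077174 on chromosome 5. The first lies in exon 1 of GENCODE release 29 (122077355 to 122078285), and the other 2 lie between it and exon 2 (122076893 to 122077001). Which bases the excess reads cover was not analysed here.

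The lysyl hydroxylases differed less. PLOD1, also called LH1, hydroxylates lysines within the triple helix. NM_000302 (3031 bases) had 4780 counts in LM2 and 5453 in MDA-MB-231, or 12.2 and 13.8 RPKM, and was 1.13-fold lower in LM2 (1.08 to 1.17). PLOD2, or LH2, hydroxylates lysines of the telopeptides, which leads to the hydroxylysine-derived crosslinks of stiff tissue. NM_182943 (4059 bases) had 5831 counts in LM2 and 6331 in MDA-MB-231, or 11.1 and 11.9 RPKM, and was 1.07-fold lower in LM2 (1.03 to 1.11). PLOD3, or LH3, also adds glucose to the galactose on hydroxylysine. NM_001084 (2977 bases) had 1799 counts in LM2 and 2788 in MDA-MB-231, or 4.69 and 7.17 RPKM, and was 1.53-fold lower in LM2 (1.44 to 1.62). PLOD3 over PLOD1 was 0.383 in LM2 and 0.521 in MDA-MB-231, a log2 difference of -0.44 (-0.54 to -0.34). The log2 difference of PLOD2 over PLOD1 was 0.07, and its interval (-0.00 to 0.15) held 0.

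PLOD2 is made in a long and a short form that differ by an alternative exon, which is shown because it is what separates the PLOD2 transcripts in the table. It is exon 14 of 20 in the long form, at chr3:146077862-146077924 of GRCh38 on the minus strand, and its 63 bases match the difference in length between NM_182943 and NM_000935.
PLOD2 exon 14: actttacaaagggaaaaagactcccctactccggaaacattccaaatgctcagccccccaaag

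The short form NM_000935 (3996 bases) had 5758 counts in LM2 and 6255 in MDA-MB-231. The long form had 73 more counts than the short in LM2 and 76 more in MDA-MB-231. These were 1.25% of its counts in LM2 (0.983 to 1.57) and 1.20% in MDA-MB-231 (0.947 to 1.5), and the intervals overlapped. The excess is the long count less the short count, so any reads given only to the short form lower it. Its intervals treat it as a plain count, and it is not the share of molecules with the exon.

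The prolyl 4-hydroxylase alpha subunits differed in opposite directions. P4HA1, the main alpha subunit of most cells, had 4819 counts in LM2 and 3270 in MDA-MB-231 for NM_000917 (2846 bases), or 13.1 and 8.79 RPKM. It was 1.49-fold higher in LM2 (1.43 to 1.56), and 89.2% of all genes had a ratio at or below it. P4HA2, known from chondrocytes and osteoblasts, had 2012 counts in LM2 and 2881 in MDA-MB-231 for NM_001017973 (2565 bases), or 6.08 and 8.59 RPKM. It was 1.41-fold lower in LM2 (1.33 to 1.497). P4HA1 over P4HA2 was 2.16 in LM2 and 1.02 in MDA-MB-231, a log2 difference of 1.08 (0.97 to 1.18).

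The other transcripts of both genes had nearly the same ratios. P4HA1 has 4 transcripts with log2 ratios of 0.58 each. NM_001142596 had 4729 counts in LM2 and 3212 in MDA-MB-231, the lowest of the 4. P4HA2 has 5 transcripts with log2 ratios between -0.51 and -0.49. NM_001017974 had the fewest counts, with 1926 in LM2 and 2773 in MDA-MB-231. LOXL1, LOXL2, LOXL3, LOXL4, PLOD1 and PLOD3 each have 1 transcript in the table.

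The order of levels by RPKM differed between the cell lines. In LM2 it was P4HA1, PLOD1, PLOD2, LOXL2, P4HA2, PLOD3, LOXL3, LOXL4, LOX and LOXL1, and only the counting intervals of LOXL4 and LOX, which are neighbours in it, overlapped. In MDA-MB-231 it was LOXL2, PLOD1, PLOD2, LOXL4, P4HA1, P4HA2, PLOD3, LOXL1, LOX and LOXL3. There the intervals of P4HA1 and P4HA2 overlapped, and so did those of LOXL1 and LOX. Other neighbours in either order were apart by more than counting error.

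Among the partners of these enzymes in the endoplasmic reticulum, FKBP10 and P3H4 were over 2-fold higher in LM2. Of 13 genes for collagen folding and modification, 12 had a mean of at least 50 counts, and the other 10 of these were within 2-fold, as were 88.5% of all genes. The median log2 ratio of the 12 was -0.08. The counts in the lists that come next are read against the same shares of all genes, 4.60% higher, 6.86% lower and the rest within 2-fold. FKBP10 encodes FKBP65, a peptidyl-prolyl isomerase known to act with PLOD2 on the telopeptide lysines. It had 3624 counts in LM2 and 24 in MDA-MB-231, or 9.75 and 0.0637 RPKM, and was 153-fold higher in LM2 (103 to 239). FKBP10 over PLOD2 was 0.875 in LM2 and 0.0053 in MDA-MB-231. P3H4, also called SC65, is known in mice to form a complex with P3H3 and PLOD1 that serves lysine hydroxylation of the helix. It had 1728 counts in LM2 and 535 in MDA-MB-231, and was 3.27-fold higher in LM2, with 0.421 of the PLOD1 level in LM2 and 0.114 in MDA-MB-231. FKBP10 and P3H4 thus had higher levels in LM2 while PLOD1 and PLOD2 themselves differed by 1.13-fold or less. P3H3, named after its value was seen, was low in both, with 99 counts in LM2 and 93 in MDA-MB-231. That is 0.291 and 0.270 RPKM, with a log2 ratio of 0.11 (-0.31 to 0.53).

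P3H1, a prolyl 3-hydroxylase, had 4024 counts in LM2 and 6687 in MDA-MB-231 (log2 ratio -0.71). COLGALT2, which adds galactose to hydroxylysine, had 506 counts in LM2 and 780 in MDA-MB-231 (-0.61). P4HB, the beta subunit of the collagen prolyl 4-hydroxylases and also known as protein disulfide isomerase, had 79.0 RPKM in LM2 and 85.3 in MDA-MB-231. It was 4.11 times the summed alpha subunits in LM2 and 4.88 times in MDA-MB-231. P4HA3, which encodes a further alpha subunit, had 11 counts in LM2 and 25 in MDA-MB-231, below the minimum. P4HB, P4HA3 and the collagen chaperone SERPINH1, with a log2 ratio of -0.06, were named after their values were seen.

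**Figure D4:**
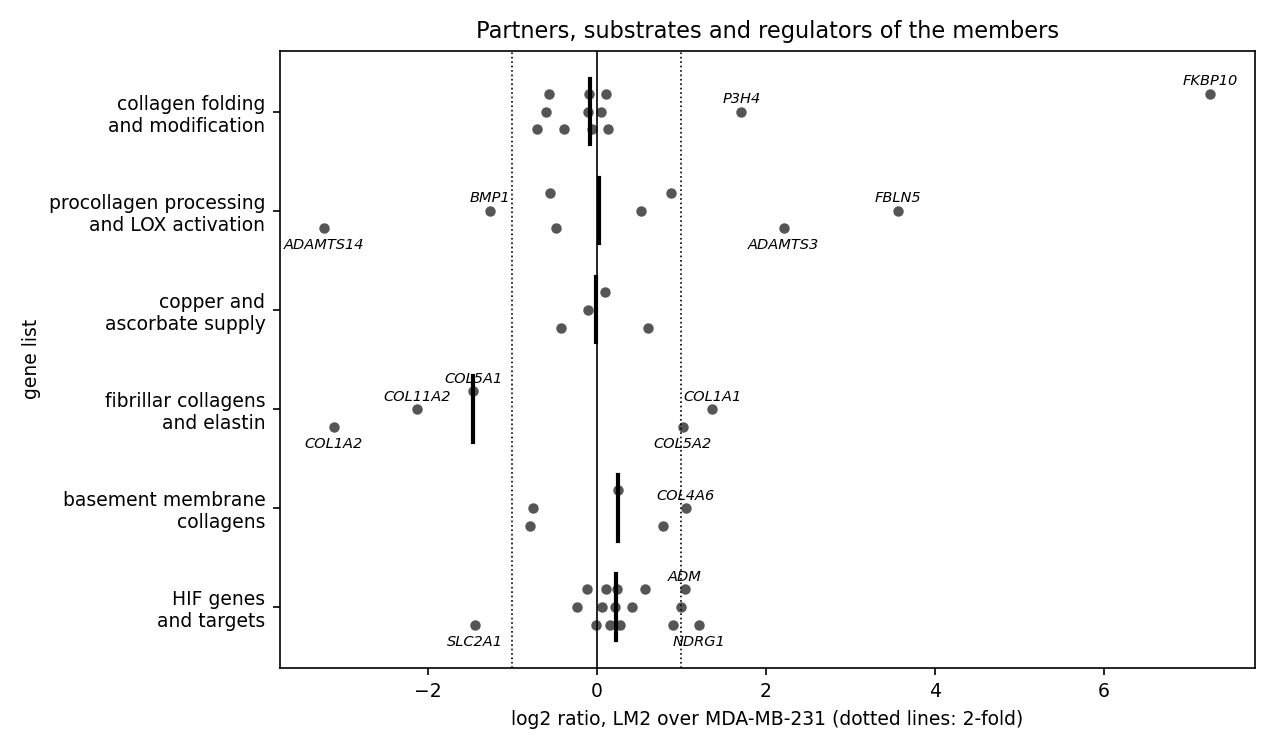
Dots show genes with a mean count of 50 or more, in 6 lists of genes around the enzymes. The lists are set along the y axis, and the log2 ratios, LM2 to MDA-MB-231, run along the x axis. A bar marks the median of each list, dotted lines mark 2-fold, and genes beyond it are named. FKBP10 stands farthest to the right at 7.26. The genes of fibrillar substrates lie on both sides, between -3.11 for COL1A2 and 1.37 for COL1A1.

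Genes that process procollagen or act on lysyl oxidases were split. Of 12 genes, 8 had a mean of at least 50 counts. Of these, 2 were lower and 2 higher by over 2-fold, and the median log2 ratio was 0.02. BMP1 encodes the protease that cleaves the propeptides of LOX and of fibrillar procollagens. Its transcript with the highest mean count was NR_033403 (3863 bases), which RefSeq labels as non-coding. That transcript had 742 counts in LM2 and 1805 in MDA-MB-231 and was 2.401-fold lower in LM2 (log2 ratio -1.26). ADAMTS14, which cleaves the amino-terminal propeptide of procollagen, had 15 counts in LM2 and 142 in MDA-MB-231 (-3.22). ADAMTS3, of the same family, had 479 counts in LM2 and 105 in MDA-MB-231 (2.21). FBLN5, the elastic fibre protein that binds LOXL1, had 151 counts in LM2 and 13 in MDA-MB-231 (3.56, interval 2.74 to 4.50). FBLN5 and its partner LOXL1 therefore differed in opposite directions.

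The genes that supply copper and ascorbate showed no member beyond 2-fold among 4 of 5 with enough counts, with a median log2 ratio of -0.01. ATP7A, the pump that loads copper into lysyl oxidases in the secretory pathway, had 1151 counts in LM2 and 1257 in MDA-MB-231 (log2 ratio -0.11, interval -0.22 to 0.01). SLC31A1, the copper importer, had 3868 counts in LM2 and 3662 in MDA-MB-231 (0.10). ATOX1, the chaperone that hands copper to ATP7A, had 2578 counts in LM2 and 1723 in MDA-MB-231 (0.60). SLC23A2, an ascorbate transporter, had 1598 counts in LM2 and 2164 in MDA-MB-231 (-0.42).

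The fibrillar collagen and elastin genes, which encode only a part of the substrates of these enzymes, had low counts apart from COL5A1. Only 5 of 10 had a mean of at least 50, and all 5 were beyond 2-fold, with 3 lower, 2 higher and a median log2 ratio of -1.46. COL5A1, which starts and limits the growth of collagen fibrils, had 1551 counts in LM2 and 4322 in MDA-MB-231 (log2 ratio -1.46). COL1A2 had 22 counts in LM2 and 193 in MDA-MB-231 (-3.11), and COL11A2 had 34 in LM2 and 150 in MDA-MB-231 (-2.12). The COL11A2 transcript is listed with a length of 41780 bases, which puts it at 0.0063 RPKM in LM2 and 0.0275 in MDA-MB-231. COL1A1 had 532 counts in LM2 and 209 in MDA-MB-231 (1.37). COL1A1 and COL1A2 encode the chains of type I collagen, and COL1A1 over COL1A2 was 22.1 in LM2 and 0.989 in MDA-MB-231. COL5A2, named after its value was seen, had 166 counts in LM2 and 83 in MDA-MB-231 (1.02).

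Of 6 basement membrane collagen genes, 5 had enough counts, 1 was over 2-fold higher and none over 2-fold lower, and the median log2 ratio was 0.25. COL4A1 had 1558 counts in LM2 and 2721 in MDA-MB-231 (log2 ratio -0.79), and COL4A2 had 4012 in LM2 and 6886 in MDA-MB-231 (-0.76). Both encode the chains found in nearly all basement membranes. COL4A5 had 1585 counts in LM2 and 934 in MDA-MB-231 (0.78), and COL4A6 had 137 in LM2 and 67 in MDA-MB-231 (1.05). They encode chains of more restricted basement membranes.

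Of 16 genes for hypoxia-inducible factors, their regulators and their targets, all had enough counts, 2 were over 2-fold higher, 1 was over 2-fold lower, and the median log2 ratio was 0.23. NDRG1 had 14780 counts in LM2 and 6475 in MDA-MB-231 (log2 ratio 1.21). ADM, the vasodilator peptide adrenomedullin, had 6225 counts in LM2 and 3065 in MDA-MB-231 (1.04). CA9, a carbonic anhydrase, had 266 in LM2 and 135 in MDA-MB-231 and was 1.996-fold higher (0.997), just under 2-fold. SLC2A1, the glucose transporter GLUT1, was lower, with 10328 counts in LM2 and 28498 in MDA-MB-231 (-1.45). HIF1A, named after its value was seen, had 28497 counts in LM2 and 19418 in MDA-MB-231 (0.57). Of the 7 known hypoxia targets among the 10 genes, P4HA1 alone had a ratio above 1, with a log2 ratio of 0.58. The other 6 had log2 ratios of -0.10 (PLOD2), -0.17 (PLOD1), -0.50 (P4HA2), -0.82 (LOXL2), -1.17 (LOX) and -3.69 (LOXL4). Over all 6 lists, 50 of 62 genes had enough counts, 9 were higher and 6 lower by over 2-fold. The counting intervals of COL5A2, COL4A6 and ADM reached below 2-fold, and with totals of NM_ transcripts these 3 were within it. The gas and medium differed between the cell lines, and their part in these values was not tested.

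RefSeq genes lying on either side of the 10 genes, 15 each way with a mean of at least 50 counts, were set beside them. Genes known only from GENCODE were not among these neighbours. The 30 RefSeq genes around LOXL4 on chromosome 10 had a median log2 ratio of 0.08, and none was as low as LOXL4. They leave out the antisense gene AL139241.1, which overlaps LOXL4 and had a log2 ratio of -3.37. Likewise, AL731563.2, which overlaps P4HA1 and had a log2 ratio of 0.85, is not among the neighbours of P4HA1. Around LOX on chromosome 5 the median was 0.05, with 2 of 30 below LOX. Around LOXL1 on chromosome 15 it was 0.47, with 1 of 30 below LOXL1. For LOXL3 on chromosome 2 the ratio of -0.27 was near the median of its neighbours, -0.29. For P4HA1 on chromosome 10 the ratio of 0.58 was above a neighbour median of 0.41, with 20 of 30 below it and 10 above. The medians around LOXL2, PLOD1, PLOD2, PLOD3 and P4HA2 lay between -0.23 and 0.11.

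**Figure D5:**
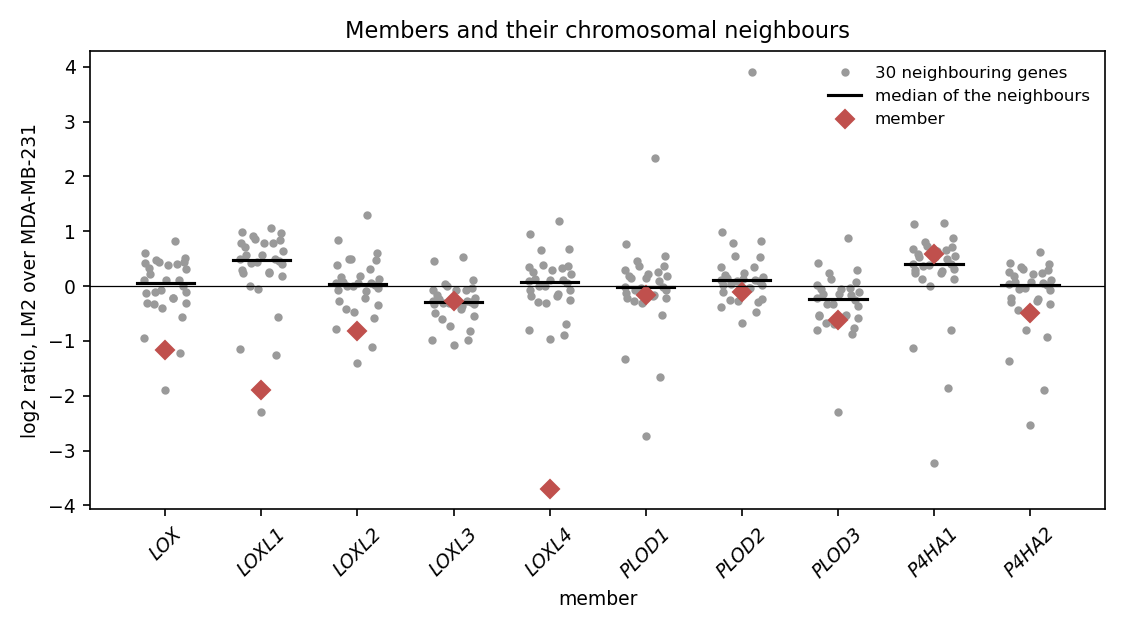
For each of the 10 genes, the log2 ratio of LM2 over MDA-MB-231 (y axis) is drawn as a diamond. Beside it are the 30 neighbouring RefSeq genes with a mean count of 50 or more (dots) and their median (bar). The diamond of LOXL4 at -3.69 lies below all 30 of its neighbours, while LOXL3 at -0.27 lies near their median of -0.29.

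Several of the 10 genes share bases of exon with a gene on the other strand in GENCODE release 29. No source used here states the strand setting of the counting, so reads from the shared bases cannot be told apart. LOXL4 shares 152 bases with the antisense gene AL139241.1, which had 48 counts in LM2 and 503 in MDA-MB-231 (log2 ratio -3.37, interval -3.83 to -2.94). LOXL1 shares 335 bases with LOXL1-AS1, whose transcript NR_040070 had 177 counts in LM2 and 428 in MDA-MB-231 (-1.25). These antisense genes were lower in LM2 as well. LOXL3 shares 625 bases with HTRA2, a mitochondrial protease, which had 2511 counts in LM2 and 3058 in MDA-MB-231 (-0.27), the same log2 ratio as LOXL3 to 2 decimals. HTRA2 had 7.63 RPKM in LM2, against 1.19 for LOXL3, and its part in the LOXL3 counts was not tested. P4HA2 shares 548 bases with P4HA2-AS1 (-0.43), PLOD3 shares 429 with ZNHIT1 (-0.17), LOX shares 138 with SRFBP1 (0.38) and P4HA1 shares 47 with AL731563.2 (0.85). LOXL2 shares 178 with AC090197.1 (-0.64) and 120 with ENTPD4 on its own strand (-0.47). Only genes with a transcript in the deposited table were considered, and PLOD1 and PLOD2 share no exon bases with any of these.

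The labelled cell line was checked against its markers. VIM, CD44, AXL and CAV1, which mark the mesenchymal state of MDA-MB-231, had between 19.0 and 951 RPKM in LM2 and between 23.0 and 550 in MDA-MB-231. The hormone receptor genes were near 0, with 8 counts of ESR1 and 2 of PGR in LM2 and 2 of ESR1 and 7 of PGR in MDA-MB-231. ERBB2 had 3.22 RPKM in LM2 and 4.91 in MDA-MB-231, and EPCAM had 1.60 in LM2 and 1.61 in MDA-MB-231. Of 11 markers of fibroblasts, pericytes, leukocytes and endothelium, 4 had a mean of at least 50 counts. All 11 summed to 19.1 RPKM in LM2 and 25.03 in MDA-MB-231, mostly from CD68 with 17.8 in LM2 and 23.0 in MDA-MB-231. Of the other 3 with enough counts, PDGFRB had 183 counts in LM2 and 525 in MDA-MB-231, ACTA2 had 89 in LM2 and 213 in MDA-MB-231, and PECAM1 had 343 in LM2 and 48 in MDA-MB-231. LUM had 18 counts in LM2 and 76 in MDA-MB-231. THY1 and CDH5 had no count in either column, and PDGFRA, DCN, FAP and PTPRC had 8 or fewer in each. Any part of other cells in the values of the 10 genes was not tested.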

How the data were processed

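GEO lists 4 samples, 2 for each line, and the deposited table has a single column for each line. The submitters' processing notes name bcl2fastq, TopHat2 (version 2.0.13) and hg19 (GRCh37). No source used here names the counting program or the annotation. The authors deposited whole-number read counts per transcript, used unchanged, and RPKM values, which equal the count over length and column total to a relative difference of at most 4.98e-06. Overlapping transcripts can share reads. In LM2, a transcript of 1 kilobase at 1 RPKM has 129 counts.

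edgeR's quasi-likelihood test was planned but needs several columns for each line, so it was not run. Ratios were computed instead, with exact (Clopper-Pearson) intervals at 95%, and for ratios between genes with a normal approximation of counting error. A mean of at least 50 counts was asked for counts of genes over 2-fold. Counts of 0 were raised to 3 before a fold was taken. The calculation was tested on simulated data.

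Symbols were paired for 62331 of 65423 transcripts through RefSeq (GRCh38.p14) and GENCODE release 29. The 10 genes and the lists were chosen with earlier results of these data known. The text names all 10 genes with their transcripts, up to 4 genes per list by the largest absolute log2 ratio, and the markers. Upstream stretches were found for 9 of the 10 genes. Identity between the proteins was not analysed here.

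Alternatives were TMM and upper-quartile factors (edgeR 4.0.16), DESeq2 1.42.0 size factors, other totals, filters and pseudocounts (0.1 and 1) for log2 RPKM. The scripts ran in Python 3.11.15 with pandas 2.3.3, numpy 2.4.6, scipy 1.17.1 and matplotlib 3.10.9, and in R 4.3.3.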

Additional observations from a re-analysis of the deposited data

How the results depend on the processing

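No paired analysis was possible because 1 column per cell line carries no replicate number, and leaving out a replicate could not be run for the same reason. None of the 10 genes changed sign under any alternative. Other scalings moved the log2 ratios by -0.067 to 0.014, and the largest of these moves, with the totals taken without the top 12 transcripts, was chosen after seeing the data. With log2(RPKM + 1), LOXL4 alone of the 10 genes was over 2-fold lower (1 gene, at -2.68), with LOX at -0.64 and LOXL1 at -0.98. In the lists 2 genes were then lower and 3 higher. Over all 15469 genes 273 (1.76%) were lower and 199 (1.29%) higher. With no filter on low counts, 11 list genes were over 2-fold lower. Of the 22559 genes then counted, 2640 (11.7%) were lower and 2227 (9.87%) higher. At a mean of at least 500 counts LOXL1 drops out, LOX and LOXL4 were over 2-fold lower, and 3 list genes were lower and 4 higher. Of the 10313 genes then counted, 418 (4.05%) were lower and 247 (2.395%) higher. Pseudocounts pull low values together, and filters change which genes are counted. Taken over 5 genes on each side in place of 15, the neighbour medians became -0.22 for LOXL4, 0.22 for LOX, 0.33 for LOXL1, 0.56 for P4HA1 and -0.19 for P4HA2. Of the recomputed values of single genes, single lists, neighbour medians, the LOXL2 share and the median of all genes, these included, 39 moved (ratios and shares beyond counting error, neighbour medians by over 0.1, counts beyond 1.5 times) and 229 did not.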
